A study of Mus musculus with 6 samples.

Results

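The replication-dependent histone genes were described here in sorted mouse spleen CD4 T cells. They were chosen by name: every row of the gene count table whose identifier belongs, in GENCODE on GRCm38, to a protein-coding gene with a symbol starting Hist1h, Hist2h, Hist3h or Hist4h. This gave 65 genes of 47729 rows, of which 6 encode H1, 18 H2A, 16 H2B, 12 H3 and 13 H4. The 6 libraries form 3 groups of 2. The WT group is wild-type mature cells sorted as CD3+CD4+CD25-CD45RBhi. The ON and OFF groups are recent thymic emigrants, T cells that have newly left the thymus, from RBPJind mice and sorted as CD3+CD4+CD25-CD45RBint. RBPJ is the DNA-binding factor through which Notch signals reach the genes, and in RBPJind mice its expression follows doxycycline. ON mice drank doxycycline for 4 weeks. OFF mice drank it for 3 weeks and then went 1 week without it. WT samples carry the doxycycline label too, with no duration stated. The promoter and cell types that drive the allele, the number of animals behind a library and their ages were not stated in the sources used here. WT differs from the other groups in genotype, maturity and CD45RB gate at once, and these cannot be told apart. ON and OFF share genotype and gate.

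A cell that copies its DNA must package the new copy, and the replication-dependent histone genes supply most of the protein for it. H2A, H2B, H3 and H4 form the core around which DNA is wound, and H1 binds the linker between cores. The genes lie in clusters, are transcribed mainly in S phase, and give mRNAs that end in a conserved stem-loop rather than a poly(A) tail. SLBP binds that stem-loop, and NPAT drives transcription of the clusters. In resting T cells these mRNAs are known to be low, and they rise when cells divide. Whether polyadenylated RNA was selected for these libraries was not stated in the sources used here, and the labels say total RNA. Some annotated transcripts run past the stem-loop, by 840 bases in Hist1h1c, 1861 in Hist1h2be and 770 in Hist1h4d. Counts of such genes are therefore not limited to mRNAs that end there, and the part of longer forms was not tested.

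The stem-loop that sets this family apart was searched in GENCODE transcripts on the coding strand, within 100 bases after the stop codon, as GG, any 2 bases, C, TTTT, any base, AG, any 2 bases, CC. It was found in 42 of the 65 genes, starting 21 to 58 bases after the stop, and in 40 of the 46 genes with at least 60 annotated bases there. Among 21886 other protein-coding genes it was found in 5, or 0.023%. These were Lrrc75b and the histone genes H2afx, H2bfm, Hist1h2bh and Hist1h2bm, of which the last pair fits the naming rule and was not analysed here. The copies of 7 genes are shown because they come from genes with results below and show where the stem differs between types. Capitals mark the stem-loop and lower case the bases beside it.
Hist1h1c: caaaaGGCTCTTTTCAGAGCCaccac
Hist2h2ac: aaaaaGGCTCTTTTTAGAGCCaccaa
Hist1h2be: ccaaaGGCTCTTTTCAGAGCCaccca
Hist1h3e: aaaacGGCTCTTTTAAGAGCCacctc
Hist1h4d: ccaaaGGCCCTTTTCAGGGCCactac
Hist1h4j: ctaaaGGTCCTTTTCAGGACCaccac
Hist2h4: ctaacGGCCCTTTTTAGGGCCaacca
All 11 H4 genes with a copy had a stem opening GGCCC or GGTCC. The H1, H2A, H2B and H3 genes with a copy opened with GGCTC.

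Promoters also separated the types. RefSeq start sites on GRCm38.p6 were matched for 59 of the 65 genes, and 5 motifs were searched on both strands in the 250 bases before the start. CCAAT stood in 48 of 59, against 33.8% of all 32544 promoters, and in 3 of 12 H4 promoters. TATAAA stood in 28, against 12.31%. The octamer ATTTGCAT, a site for factors such as POU2F1, stood in 7 of 18 H2A and 5 of 14 H2B promoters and in none of the H1, H3 or H4 promoters, against 1.62% of all promoters. AAACACA, the H1 box, stood in 4 of 5 H1 promoters, against 6.26%. GGTCCG, the core of the H4 site II element, stood in 9 of 12 H4 promoters, against 6.78%. The searched bases of some H2A and H2B neighbours overlap, as for Hist1h2ae and Hist1h2bg, so a match there can count for both genes. A match is a run of letters and was not tested as a site. The 150 bases before the start are shown for 1 gene of each type with values below, with matches in capitals on either strand.
Hist1h1c, chr13:23738657-23738806, plus strand: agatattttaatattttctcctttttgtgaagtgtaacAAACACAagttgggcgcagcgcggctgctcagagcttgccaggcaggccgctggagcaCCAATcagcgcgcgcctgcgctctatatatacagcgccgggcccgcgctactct
Hist2h2ac, chr3:96220881-96221030, minus strand: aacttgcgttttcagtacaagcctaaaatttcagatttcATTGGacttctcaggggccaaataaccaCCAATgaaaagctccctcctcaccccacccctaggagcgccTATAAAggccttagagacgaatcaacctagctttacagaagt
Hist1h2bb, chr13:23746584-23746733, plus strand: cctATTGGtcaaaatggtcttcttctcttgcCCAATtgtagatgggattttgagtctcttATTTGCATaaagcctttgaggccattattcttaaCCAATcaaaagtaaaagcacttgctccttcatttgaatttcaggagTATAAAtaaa
Hist1h3e, chr13:23562386-23562535, minus strand: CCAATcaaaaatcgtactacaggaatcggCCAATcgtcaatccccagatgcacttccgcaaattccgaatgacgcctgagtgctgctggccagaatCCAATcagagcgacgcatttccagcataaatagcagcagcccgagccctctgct
Hist1h4d, chr13:23581418-23581567, plus strand: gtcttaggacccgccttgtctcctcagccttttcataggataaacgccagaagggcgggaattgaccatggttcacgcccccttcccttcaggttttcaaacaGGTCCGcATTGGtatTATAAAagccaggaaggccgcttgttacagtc
In Hist1h1c the first capitals are the H1 box, in Hist1h2bb the octamer follows the second CCAAT match, and in Hist1h4d the H4 element comes first.

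Between 17025551 and 19319183 counts per library fell in genes, and 15780 genes passed the count filter, 58 of the histone genes among them. The table says nothing of separate mice behind the replicates, and the tests below compare libraries, whose spread may be technical. Rbpj was at 36.1 and 35.3 CPM (counts scaled to library size by TMM) for WT, with 98.2 and 79.6 for ON, and 29.8 and 31.7 for OFF, which matches the direction of the labels for ON and OFF. Cd4 stood at 604 to 702 CPM in every library and Cd3e at 307 to 427.

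Transcripts of the 65 genes added up to 972 and 911 CPM for WT, with 4887 and 2384 for ON, and 2130.5 and 3300.0 for OFF. They made up 0.0949% and 0.0921% of gene counts for WT, 0.504% and 0.249% for ON and 0.204% and 0.319% for OFF. Every ON and OFF library lay above both WT libraries, and ON and OFF overlapped. The means were 942 ± 43.2 in WT, 3636 ± 1770 in ON and 2715 ± 827 in OFF (SD, n = 2), and no test was made of the sum. More dividing cells and more histone mRNA per cell cannot be told apart in bulk RNA.

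Each histone type followed the same layout, as the plot of summed CPM by type shows. H1 genes summed to 510 and 474 CPM for WT, 2302 and 1218 for ON and 1022 and 1552 in OFF. H2A genes summed to 122 and 118 for WT, 937 and 348 for ON and 320.5 and 506 in OFF. H2B genes summed to 92.9 and 87.7 for WT, 641 and 339 for ON and 265 and 427 in OFF. H3 genes summed to 56.3 and 48.9 for WT, 343 and 117 for ON and 164 and 277 in OFF. H4 genes summed to 191 and 182 for WT, 664 and 363 for ON and 360 and 539 in OFF. The ratio of the ON mean to the WT mean was 5.34 for H2A, 5.42 for H2B, 4.37 for H3, 3.58 for H1 and 2.75 for H4. For the OFF mean it was 3.43 for H2A, 3.83 for H2B, 4.19 for H3, 2.62 for H1 and 2.41 for H4. The order of types thus differed between ON and OFF, and these ratios are described with no test.

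**Figure D1:**
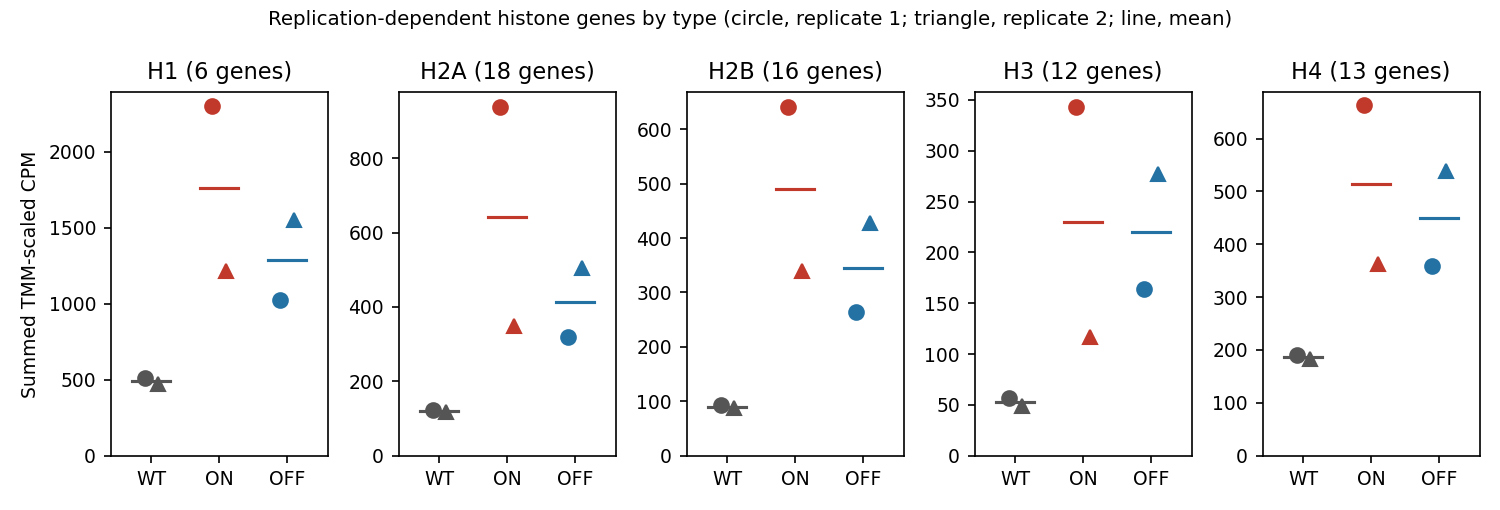
Summed TMM-scaled CPM of the histone genes of each type (vertical axes, each from 0 with its own scale) in the WT, ON and OFF groups, with circles for replicate 1, triangles for replicate 2 and a line at the mean. For every type the 2 WT libraries lie together below the other 4, ON 1 is highest, and the ON and OFF libraries overlap.

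The comparison of ON with WT asks how recent emigrants that kept the Notch signal differ from mature wild-type cells. Of the 58 tested histone genes 41 rose in ON, or 70.7%, and 0 fell, where 14.8% of all tested genes were called, 9.68% higher and 5.16% lower (edgeR quasi-likelihood test, adjusted p under 0.05). The median log2 fold change was 2.31, and that of all tested genes was -0.02. All 5 tested H1 genes rose, as did 8 of 15 H2A, 10 of 14 H2B, 8 of 11 H3 and 10 of 13 H4 genes. In 52 genes both ON libraries lay above both WT libraries, in 1 below, and in 5 the groups overlapped, against 29.8% of all tested genes above and 30.0% below. Without WT 1 or without WT 2 the count was 4, Hist1h1c, Hist1h2ah, Hist1h2be and Hist1h2bj in each case, while calls over all genes dropped to 2.92% and 2.08% and the histone median was 2.46 and 2.27. In those fits the lone WT library is assumed to vary like the other groups. The count was 24 without OFF 2, 21 with no count filter, 21 with limma-voom and 49 with DESeq2, where 13.4%, 4.28%, 12.6% and 16.9% of all genes were called.

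OFF against WT asks the same of emigrants whose doxycycline was withdrawn for the last week and which the labels describe as unresponsive to Notch. Here 18 of 58 genes rose, or 31.0%, and 0 fell, against 6.83% of all tested genes called, 4.70% higher and 2.14% lower. The median log2 fold change was 1.94, beside 0.01 for all genes. All 58 had both OFF libraries above both WT libraries, a layout found in 29.8% of all tested genes. Some met the count filter only through ON and OFF, such as Hist1h2ah with 2 and 3 counts in WT and Hist1h2ad with 4 and 4. Their place above WT, here and in ON, was thus partly set by the filter. Among the untested genes, Hist1h1t had both OFF libraries below both WT libraries, and Hist1h2ap had both above. The 18 were 2 H1, 2 H2A, 6 H2B, 3 H3 and 5 H4 genes, and each of them was also called in ON. This comparison shares its WT libraries with that of ON. The count moved widely with the fit, as did the calls over all genes. It was 0 without WT 1 or without WT 2, where 1.32% and 1.27% of all genes were called, and 2 without OFF 2 (1.90%). It was 49 without ON 1 or without ON 2 (9.18% and 9.08%) and 49 with only the 4 libraries compared (9.89%). DESeq2 called 42 (7.76% of all genes), limma-voom 2 (3.70%) and the fit with no count filter 10 (2.24%).

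The size of a gene's rise also depended on the library left out. Of the 41 genes called in ON, 25 had a fold that moved by over 1.5 times without some library: all 25 without ON 1, 10 also without ON 2 and 1 without WT 1. For Hist1h1a, called in 5 of 16 alternatives, the log2 value ranged from 1.47 to 3.23, and for Hist1h1b from 2.74 to 4.60. Hist1h2af ranged from 3.23 to 4.81, Hist1h3g from 2.62 to 4.26, Hist1h3e from 0.93 to 2.16 and Hist1h4f from 2.71 to 4.02. The narrower ranges included Hist1h1c at 1.06 to 1.57 and Hist1h2be at 1.41 to 1.99, both called in 16 of 16 alternatives. In OFF 1 of the 18 moved as far, Hist1h2bc, at 1.503 without OFF 2. No called value fell to 0 when a library was left out.

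**Figure D2:**
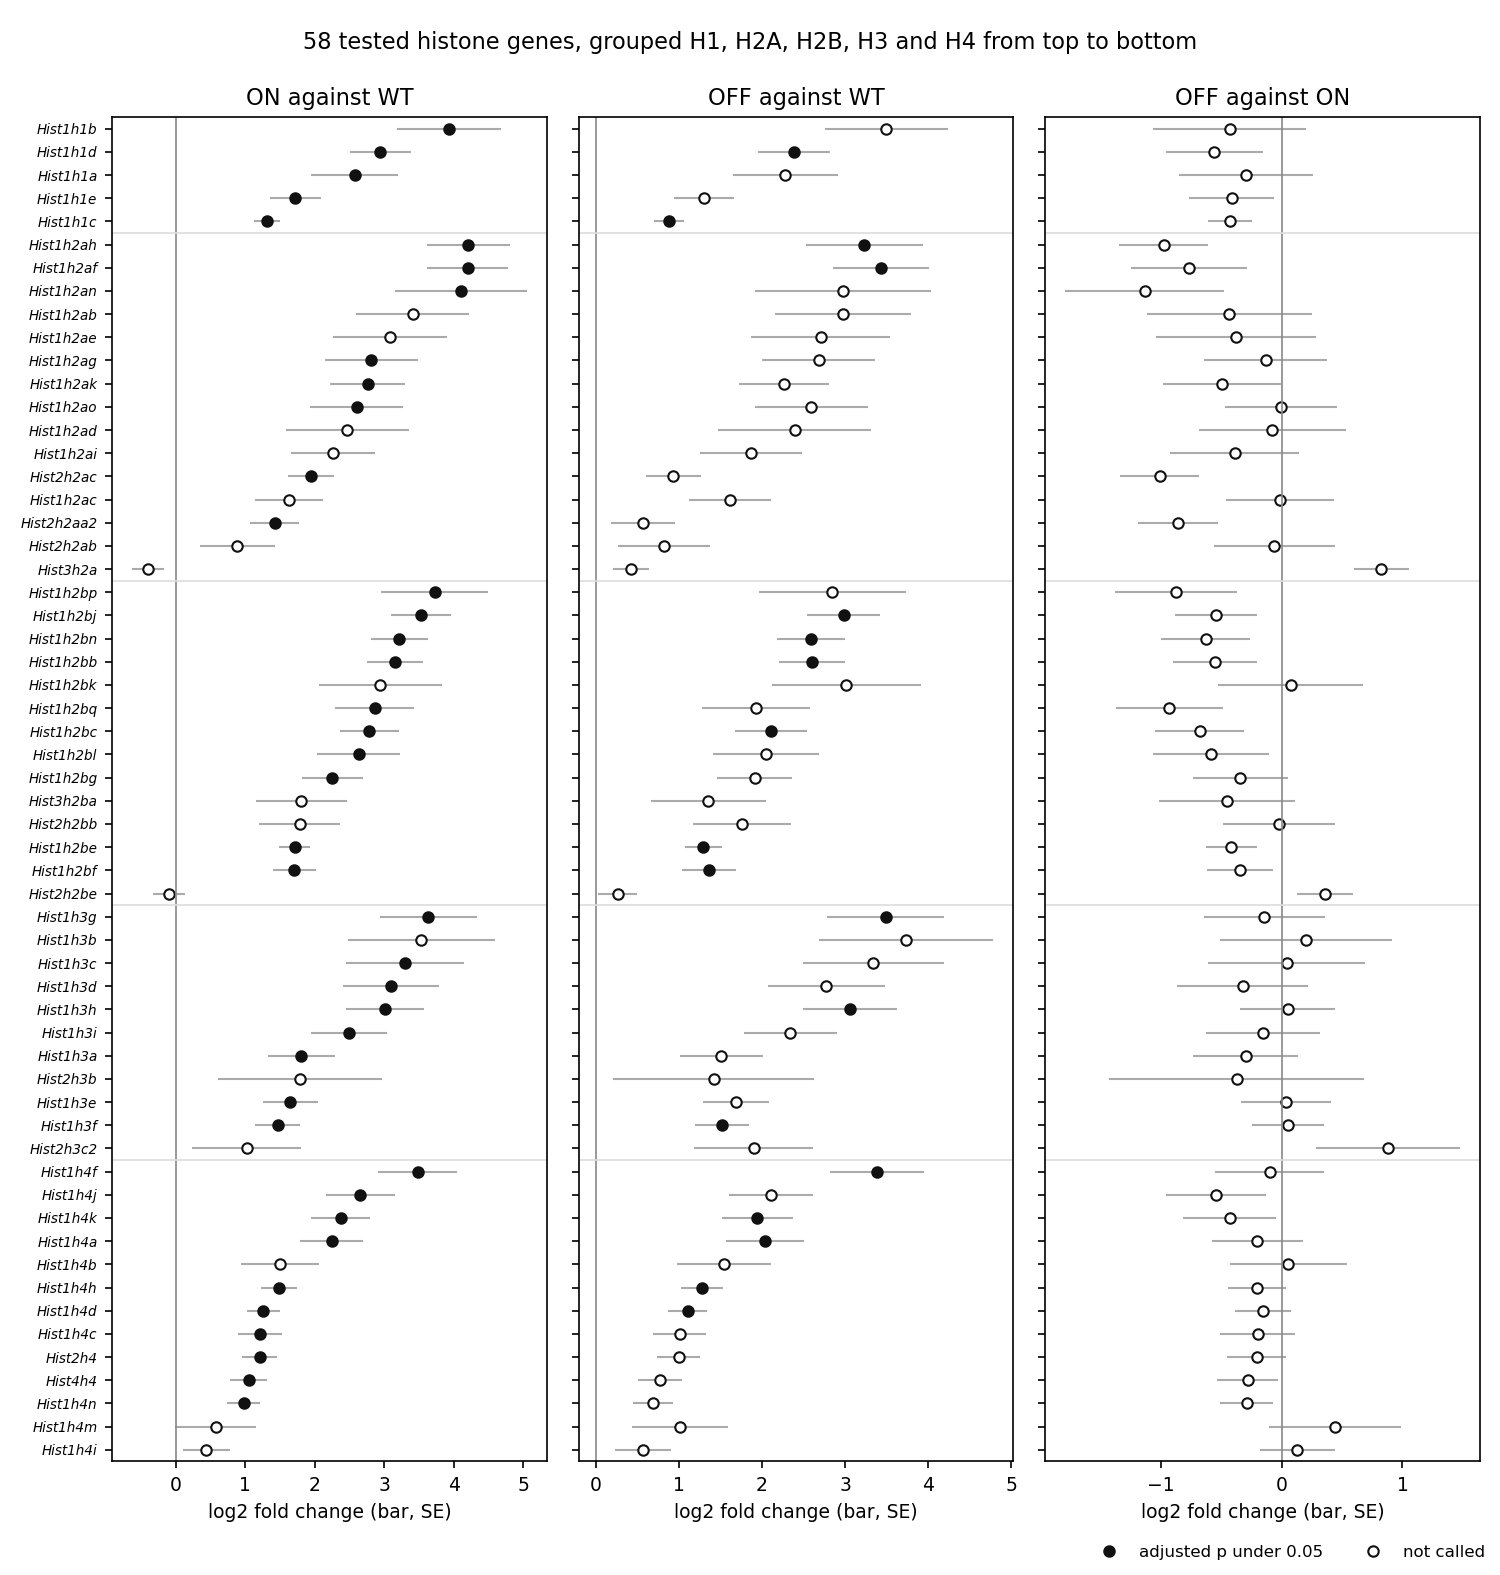
Log2 fold change (horizontal axis, bar for the SE) of the 58 tested histone genes in ON against WT, OFF against WT and OFF against ON, with filled points for an adjusted p under 0.05. Filled points number 41, 18 and 0 from left to right, and in the middle panel every point lies above 0.

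H1 genes encode linker histones that differ in sequence. Hist1h1c encodes H1.2 and had the highest mean level per annotated exon length of the H1 genes, 352 CPM per kb. Annotated genes differ in how far they run past the stop codon, so ranks per length in all types depend on the annotation. Hist1h1c was at 319.8 and 298 CPM in WT, against 899 and 637 in ON and 496 and 645 in OFF, with neither group overlapping WT. It rose 2.48-fold in ON (log2 1.31 ± 0.18 SE, adjusted p = 0.0025) and 1.85-fold in OFF (log2 0.88 ± 0.18, adjusted p = 0.023). Hist1h1d, which encodes H1.3, was at 57.7 and 52.1 CPM in WT, 589 and 255 in ON, and in OFF 209 and 366. It rose 7.70-fold in ON (adjusted p = 0.00823) and 5.24-fold in OFF (adjusted p = 0.027).

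Hist1h1b, which encodes H1.5, moved most among the H1 genes. It was at 10.6 and 10.3 CPM in WT, against 249.7 and 69.1 in ON and 80.4 and 156 in OFF, so that each RBPJind library was well above WT and ON 1 stood alone at the top. It rose in ON (log2 3.93 ± 0.75, adjusted p = 0.0277), and its value in OFF was 3.50 ± 0.74 with an adjusted p of 0.0579. Hist1h1e, for H1.4, was at 113 and 104 CPM in WT, 483 and 232 in ON, and in OFF 208 and 329. It rose in ON (log2 1.72, adjusted p = 0.0253). Hist1h1a, for H1.1, rose in ON as well (log2 2.58, adjusted p = 0.0412), from 8.19 and 9.30 CPM to 80.7 and 23.8. Hist1h1t, the testis linker histone, was under 0.6 CPM in every library and was not tested.

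The make-up of H1 mRNA therefore differed between libraries, as the plot of H1 shares shows. Hist1h1c gave 62.8% and 62.9% of summed H1 CPM in WT, against 39.1% and 52.3% in ON and 48.5% and 41.6% in OFF. Hist1h1d gave 11.3% and 10.99% in WT, 25.6% and 20.97% in ON, and in OFF 20.5% and 23.6%. Hist1h1b gave 2.09% and 2.17% in WT, against 10.8% and 5.67% in ON and 7.87% and 10.1% in OFF. For these 3 genes no ON or OFF library reached the WT range. Hist1h1e stayed between 19.1% and 22.2% in all 6 libraries. These shares are not corrected for gene length.

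**Figure D3:**
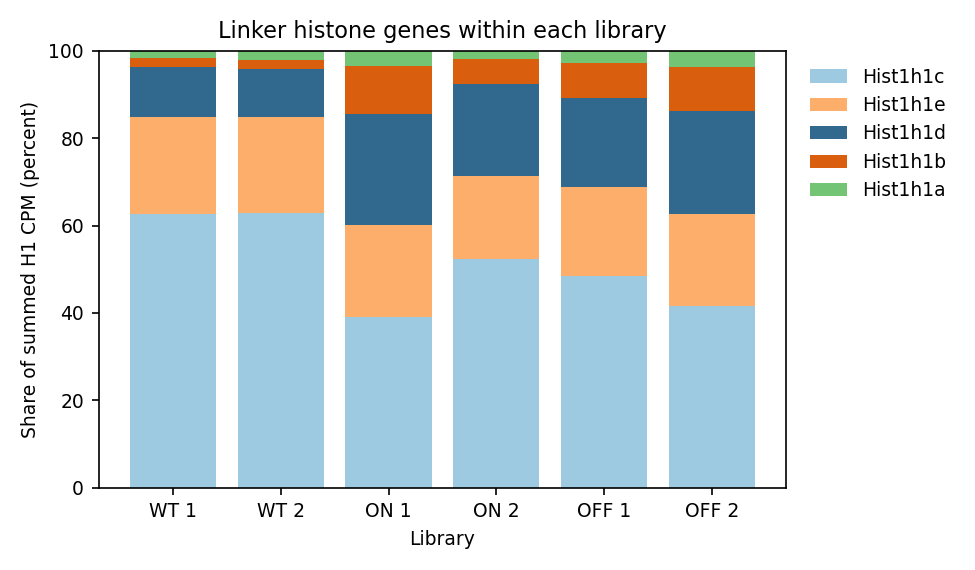
Share of summed H1 CPM (vertical axis, percent) taken by each H1 gene in each library. The Hist1h1c segment is 62.8% and 62.9% in WT and between 39.1% and 52.3% in the ON and OFF libraries, where the Hist1h1d and Hist1h1b segments are wider.

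H2A genes encode the core histone that pairs with H2B. Hist2h2ac, the highest H2A gene per length at 247 CPM per kb, was at 56.9 and 57.0 CPM in WT, 296 and 142 in ON, and in OFF 94.2 and 123. The 3 groups did not overlap. It rose in ON (log2 1.94 ± 0.34, adjusted p = 0.0133), and in OFF its value was 0.93 ± 0.33 with an adjusted p of 0.16. Hist1h2af was at 7.06 and 5.93 CPM in WT, against 179 and 60.2 in ON and 54.9 and 85.4 in OFF. It rose 18.4-fold in ON (adjusted p = 0.00719) and 10.8-fold in OFF (adjusted p = 0.0232). Hist1h2ah, a gene of low counts at 0.12 and 0.17 CPM in WT, rose in ON (log2 4.21, adjusted p = 0.00236) and in OFF (log2 3.23, adjusted p = 0.027). Its 2 counts in WT 1 and 69 in ON 1 show how few reads lie behind that fold.

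Hist1h2ak was at 15.7 and 16.3 CPM in WT, 160.4 and 56.0 in ON, and in OFF 54.2 and 99.6, and rose in ON (log2 2.76, adjusted p = 0.0218). The other 4 H2A genes that rose in ON were Hist1h2ag, Hist1h2an, Hist1h2ao and Hist2h2aa2, with log2 values from 1.42 to 4.10. Hist3h2a went the other way: it was at 5.92 and 6.57 CPM in WT, against 4.91 and 4.56 in ON and 9.24 and 7.51 in OFF. It was the gene with both ON libraries under WT, and its log2 value was -0.40 ± 0.23 (adjusted p = 0.28).

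H2B genes rose in 10 of 14 cases in ON and 6 in OFF. Hist1h2be was at 36.1 and 34.2 CPM in WT, 137 and 92.2 in ON, and in OFF 70.2 and 102. Its call was among the firmest: it rose 3.27-fold in ON (adjusted p = 0.00205) and 2.45-fold in OFF (adjusted p = 0.0117). Hist1h2bn, the highest H2B gene per annotated length at 202 CPM per kb, is annotated with 381 bases, against 4446 for Hist1h2be. Hist1h2bn was at 13.5 and 14.9 CPM in WT, against 181 and 82.1 in ON and 67.1 and 103 in OFF. It rose 9.29-fold in ON (adjusted p = 0.0049) and 6.01-fold in OFF (adjusted p = 0.0176). Hist1h2bb, whose promoter is printed above, was at 10.3 and 10.1 CPM in WT, 121 and 61.6 in ON, and in OFF 46.2 and 78.3, and rose 8.91-fold in ON and 6.08-fold in OFF. Hist1h2bj rose 11.5-fold in ON (adjusted p = 0.0029) and 7.92-fold in OFF (adjusted p = 0.00956).

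Hist1h2bc and Hist1h2bf rose in both comparisons too, and Hist1h2bg, Hist1h2bl, Hist1h2bp and Hist1h2bq were called in ON, with log2 values of 2.25 to 3.72. Hist2h2be was at 6.76 and 5.47 CPM in WT, against 6.24 and 5.20 in ON and 7.63 and 7.03 in OFF. Its groups overlapped between ON and WT, with a log2 value of -0.10 ± 0.23.

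**Figure D4:**
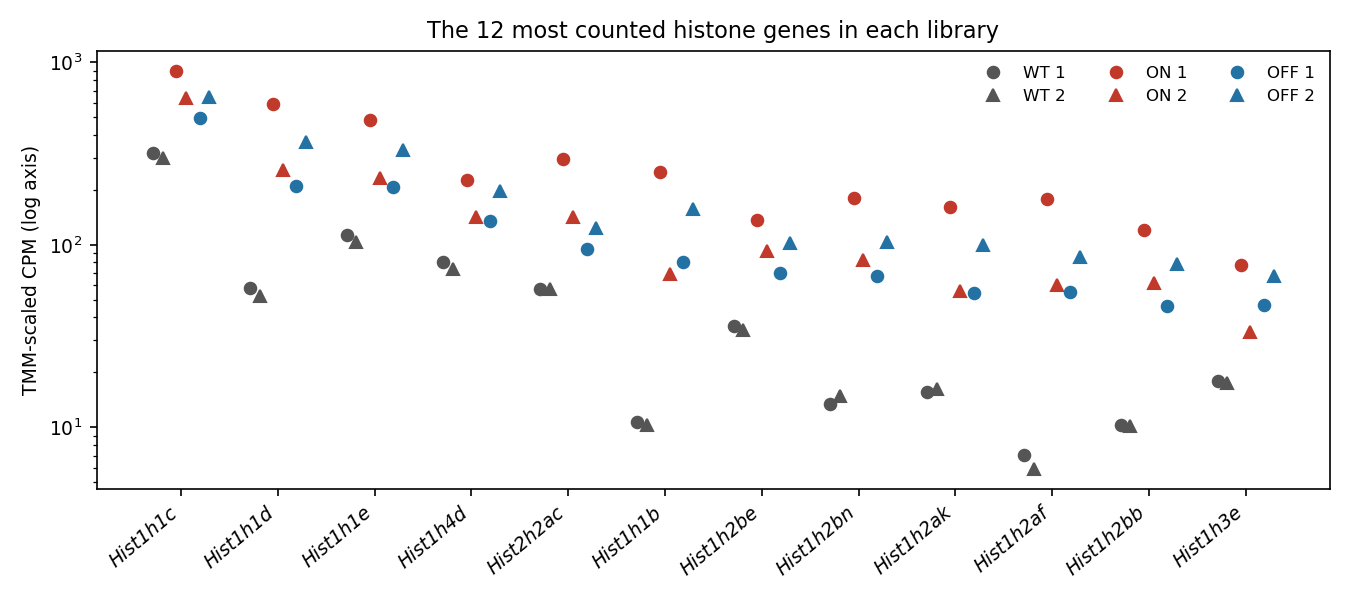
TMM-scaled CPM (vertical log axis) in each library of the 12 histone genes with the highest mean CPM, with circles for replicate 1 and triangles for replicate 2. In each of the 12 both WT points lie lowest and ON 1 is the highest point.

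H3 genes rose in 8 of 11 cases in ON. Hist1h3e, the highest H3 gene per length at 52.0 CPM per kb, was at 17.9 and 17.6 CPM in WT, 77.8 and 33.3 in ON, and in OFF 46.7 and 67.4. It rose 3.13-fold in ON (adjusted p = 0.0376), and its OFF value of 3.22-fold had an adjusted p of 0.0565. Hist1h3g was at 1.61 and 1.10 CPM in WT, against 25.6 and 8.23 in ON and 11.6 and 19.0 in OFF. It rose 12.4-fold in ON (adjusted p = 0.0191) and 11.2-fold in OFF (adjusted p = 0.0369). Hist1h3f and Hist1h3h rose in both comparisons, with log2 values of 1.47 and 3.01 in ON and 1.52 and 3.06 in OFF. Hist1h3a, Hist1h3c, Hist1h3d and Hist1h3i were called in ON, with log2 values of 1.81 to 3.30. Hist2h3b, at 32.4 CPM in ON 1 and 2.68 in ON 2, had the widest ratio between the ON replicates among the tested histone genes, and a log2 value of 1.79 ± 1.18.

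H4 genes had the smallest median among the types, log2 1.26 in ON and 1.10 in OFF. Hist1h4d, the highest H4 gene per length at 125 CPM per kb, was at 80.1 and 73.9 CPM in WT, 225 and 143 in ON, and in OFF 135 and 196. It rose 2.39-fold in ON (adjusted p = 0.0108) and 2.15-fold in OFF (adjusted p = 0.0303). Hist1h4f was at 3.47 and 3.55 CPM in WT, against 55.9 and 22.7 in ON and 24.7 and 48.8 in OFF, and rose 11.2-fold and 10.4-fold. Hist1h4a, Hist1h4h and Hist1h4k rose in both comparisons. Hist1h4c, Hist1h4j, Hist1h4n, Hist2h4 and Hist4h4 were called in ON, with log2 values of 0.98 to 2.66. Hist1h4n was at 5.02 and 3.72 CPM in WT, 8.38 and 8.82 in ON, and in OFF 6.59 and 7.51.

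OFF set against ON asks what withdrawal of doxycycline in the last week changed. In Rbpj mRNA this sets a level near that of WT (log2 -0.22 against WT, not called) against one above it (log2 1.32 ± 0.14). No histone gene was called by edgeR, where 1.03% of all tested genes were, 0.602% higher and 0.425% lower. DESeq2 and limma-voom called 0 as well, where 3.56% and 0.837% of all genes were called. With shares this small, 0 of 58 is near them and is not read as a lack of change. At an unadjusted p under 0.05 there were 5 genes by edgeR: Hist3h2a, Hist2h2ac, Hist1h2ah, Hist2h2aa2 and Hist1h1c, which are named because of these values. Their log2 values were 0.82 ± 0.23, -1.01 ± 0.32, -0.98 ± 0.37, -0.86 ± 0.33 and -0.43 ± 0.18, with adjusted p from 0.11 to 0.239. The median over the 58 genes was -0.30, with 12 values above 0 and 46 below. That median depended on single libraries: it was 0.51 without ON 1, 0.03 without OFF 1, -0.75 without ON 2 and -0.74 without OFF 2. In 52 genes the ON and OFF libraries overlapped. OFF lay below ON in Hist2h2ac, Hist1h4n, Hist2h2aa2 and Hist1h2ah and above it in Hist3h2a and Hist2h2be, layouts that 23.3% and 23.4% of all tested genes had. The median was 0.04 for H3, -0.20 for H4, -0.39 for H2A, -0.43 for H1 and -0.50 for H2B.

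The replicates of a group differed in the histone genes as a block. ON 1 was above ON 2 in 57 of 58 genes, by a median of 2.41-fold, where 50.4% of all tested genes were higher in ON 1. OFF 2 was above OFF 1 in 56 of 58, by 1.68-fold, against 51.1% of all tested genes. WT 1 was above WT 2 in 34 of 58, by 1.05-fold, against 52.0% of all tested genes. Cell-division genes were split the same way in ON and OFF. In WT, replicate 1 was the higher in 18 of 36 DNA replication genes and in 17 of 20 mitosis genes, the latter by a median of 1.26-fold. ON 1 was above ON 2 in 35 of 36 DNA replication genes and in 20 of 20 mitosis genes, by medians of 1.47-fold and 2.46-fold. OFF 2 was above OFF 1 in 32 of 36 and 20 of 20. The part of this difference in the wide SE of the ON and OFF values was not tested.

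The main cluster and the smaller ones had different values. The Hist1 genes lie on chromosome 13 between 21715763 and 23934851 (GRCm38), and 37 of their 47 tested members rose in ON, with a median log2 value of 2.63. Of the 11 tested genes of the Hist2, Hist3 and Hist4 loci on chromosomes 3, 11 and 6 there were 4, Hist2h2ac, Hist2h2aa2, Hist2h4 and Hist4h4, with a median of 1.21. In OFF the counts were 18 of 47 and 0 of 11, with medians of 2.27 and 0.93. Of all tested genes 9.68% were called higher in ON and 4.70% in OFF, and 0 of 11 is near the latter share. The difference between clusters was not tested.

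Histone genes of a type resemble each other, and this limits how reads can be assigned. Of all 100-base words in a gene's transcripts, a median of 38.5% also occurred in the transcripts of another gene: 0.40% for H1, 69.9% for H2A, 42.5% for H2B, 49.8% for H3 and 19.0% for H4. Hist1h2af shared 79.3%, Hist1h2ah 89.5% and Hist2h2aa2 100%, so their levels are uncertain, while Hist1h1c shared 5.1% and Hist1h4d and Hist1h1b 0. Among the 34 tested genes that shared at most 50%, 28 rose in ON and 13 in OFF. Among the 24 that shared more, 13 and 5 did, where 9.68% and 4.70% of all tested genes were called higher. All 18 H2A genes overlap a gene on the opposite strand, 17 of them a miRNA. Exons of 7 of the 65 genes overlap another gene on the same strand. Among these Hist1h1e and Hist1h2be overlap each other, and Hist3h2a overlaps Trim17. The strand setting of the counting was not stated in the sources used here. Reads labelled ambiguous, 0.987% to 1.33% per library, and reads aligned more than once were kept apart from the gene counts. Reads from overlapping or shared stretches may therefore be missing from the counts of these genes. The size of any such loss was not tested.

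Of 24 genes for transcription and processing of histone mRNA, 2 rose and 1 fell in ON, with a median log2 value of 0.08, and 0 were called in OFF. The share in ON is near the 14.8% of all tested genes called there, and 6.83% of all tested genes were called in OFF. Slbp, whose protein binds the stem-loop, was at 37.7 and 35.3 CPM in WT, against 60.9 and 59.0 in ON and 40.8 and 53.2 in OFF, and rose in ON (log2 0.71 ± 0.15, adjusted p = 0.0129). Nelfe, a subunit of the negative elongation factor, rose in ON (log2 0.97, adjusted p = 0.00865). Pou2f1, which encodes an octamer-binding factor, fell in ON (log2 -0.71, adjusted p = 0.0111), from 81.4 and 90.4 CPM to 56.4 and 48.5. Npat was at 25.6 to 33.0 CPM in all libraries, with log2 values of -0.16 in ON and -0.11 in OFF.

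Of 25 histone chaperone genes 13 rose in ON and 3 in OFF, where 9.68% and 4.70% of all tested genes were called higher. Chaf1a, the large subunit of the complex that places new H3 and H4 behind the replication fork, was at 3.59 and 3.84 CPM in WT, 30.8 and 23.1 in ON, and in OFF 15.8 and 18.3. It rose in both (log2 2.86 and 2.20, adjusted p = 9.08e-05 and 0.000683). Asf1b, which hands H3 and H4 to that complex, rose by 2.04 and 1.62 on the log2 scale. Hat1, which acetylates new H4, and Anp32e, a chaperone of H2A.Z, each rose by 0.71 in ON. Mms22l, which acts at stalled forks, rose by 0.81 in ON and 0.95 in OFF.

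Replication-independent histone genes, which are expressed outside S phase as well, rose in 4 of 9 tested cases in ON and 2 in OFF. Of all tested genes 9.68% were called higher in ON and 4.70% in OFF. H2afz was at 33.4 and 38.0 CPM in WT, against 99.5 and 69.9 in ON and 47.8 and 64.5 in OFF, and rose in ON (log2 1.25, adjusted p = 0.00417). H3f3b, for H3.3, rose by 0.77 in ON and 0.64 in OFF. H1f0, the linker histone H1.0, rose by 2.07 and 1.58. H2afx, which held a stem-loop match, was at 20.9 and 18.7 CPM in WT, 106 and 45.5 in ON, and in OFF 53.7 and 76.8, and rose in ON (log2 1.93, adjusted p = 0.0231).

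Cell-division genes moved with the histone genes. Of 36 DNA replication genes 27 rose in ON and 13 in OFF, with medians of 1.32 and 0.90. Of 20 mitosis genes 20 rose in ON and 15 in OFF, with medians of 3.32 and 2.91. The shares of all tested genes called higher were 9.68% in ON and 4.70% in OFF. Mcm3 and Mcm5, of the helicase that opens the fork, rose by 1.36 and 1.32 in ON and by 0.80 and 1.02 in OFF. Clspn rose by 3.10 and 2.43, Lig1 by 1.84 and 1.28, Pole by 1.96 and 1.83, and E2f2 by 1.39 and 1.41. Pcna was at 73.4 and 73.6 CPM in WT, against 113 and 76.8 in ON and 79.6 and 101 in OFF, with an adjusted p of 0.214 in ON. Mki67, a marker of cycling cells, was at 48.8 and 38.4 CPM in WT, 626 and 241 in ON, and in OFF 277 and 475, and rose by 3.31 and 3.11. Top2a, Nusap1, Aurkb and Bub1b rose by 2.94 to 4.30 in ON and by 2.55 to 3.82 in OFF. None of these 5 lists had a gene called between OFF and ON, where 1.03% of all tested genes were called.

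**Figure D5:**
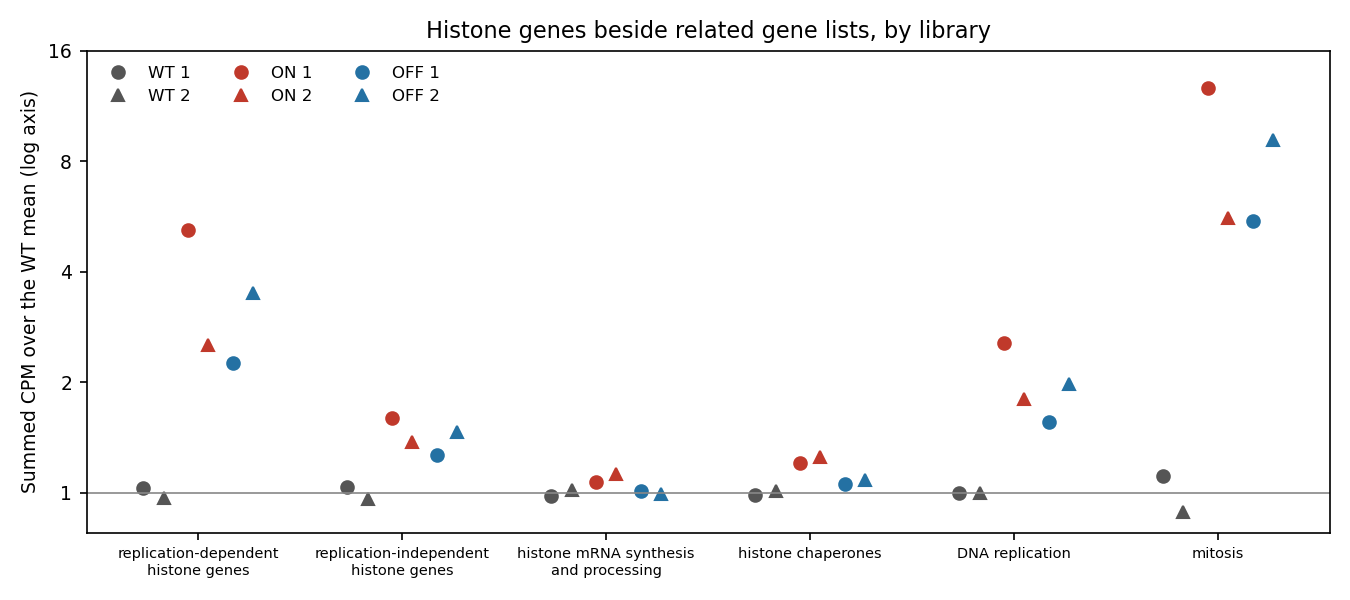
Summed CPM of each gene list in each library divided by the mean of the 2 WT libraries (vertical log axis, line at 1). Histone genes reach 5.19 and 2.53 in ON and 2.26 and 3.50 in OFF, mitosis genes 12.7 and 5.60 in ON and 5.498 and 9.14 in OFF, and genes for histone mRNA synthesis and processing stay between 0.98 and 1.13.

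Markers of other cell types also differed between groups. The 10 B cell markers summed to 187 to 203 CPM in WT, 152 to 176 in ON and 213 to 260.4 in OFF, with 4 higher and 1 lower in ON and 8 higher in OFF. Their median log2 value was 1.19 in ON and 2.06 in OFF, and most of the sum is Ighm, at 125 to 206 CPM. The 2 CD8 markers summed to 13.8 to 14.4 CPM in WT, 18.1 to 23.7 in ON and 14.2 to 18.0 in OFF, with Cd8a at 5.72 and 5.85 CPM in ON and 0.42 and 1.28 in WT. The 10 myeloid markers summed to 14.9 to 15.8 in WT, 23.4 to 26.9 in ON and 24.8 to 39.2 in OFF, with Lyz2 at 16.2 and 25.8 CPM in OFF. The 9 erythroid markers in the table summed to 29.8 to 33.4 in WT, 41.4 to 44.4 in ON and 33.6 to 38.5 in OFF, and Hbb-bs was at most 0.66 CPM in any library. No B cell or CD8 marker was at 0 in both libraries of a group, 1 myeloid marker was in ON, and 2 erythroid markers were in WT and 1 in ON. Called higher were also 1 of 2 tested CD8 markers in ON and 1 in OFF. Of 6 tested myeloid markers 2 were called higher in ON and 1 in OFF, and of 3 erythroid markers 1 and 0. Beside these, 9.68% of all tested genes were called higher and 5.16% lower in ON, and 4.70% higher in OFF. The part of other cells in the histone values was not tested.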

How the data were processed

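Total RNA of 6 samples (3 groups of 2) was sequenced on a NovaSeq instrument and aligned to GRCm38, per the labels' protocols. R 3.6.2 and edgeR are named per the submitters' processing notes. The sources used here name no aligner, counter, strand setting or annotation release. The authors deposited raw counts per gene, with no normalization. Its 5 summary rows name no gene and stayed out of library sizes: between 33.7% and 46.9% of the table's reads lay in genes, and 13.3% to 15.0% aligned more than once.

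Identifiers were matched to GENCODE release M21 (47310 matched, 419 not). Genes were kept by filterByExpr (minimum count 10, minimum total 15), scaled by TMM, and tested by the robust quasi-likelihood test of edgeR in 1 fit of all 6 libraries with 3 residual degrees of freedom. P-values were adjusted by Benjamini-Hochberg over all 15780 genes, and an adjusted p under 0.05 was called. Histone genes below the filter were given as CPM only. Versions were edgeR 4.0.16, DESeq2 1.42.0, limma 3.58.1 and statmod 1.5.0, under R 4.3.3. On simulated counts with 200 genes changed, the calls for OFF against ON, ON against WT and OFF against WT found 54.7%, 51.3% and 50.7% of genes with a log2 change of 1. With a change of 2 the shares were 93.3%, 91.7% and 92.0%, and 3.28%, 5.29% and 5.85% of calls were false. Every simulated gene had the same spread in every group, a coefficient of variation of 15.7%. In the real counts the replicates differed more in ON than in WT or OFF (chi-square per degree of freedom 65.9, 9.50 and 17.8). These shares may therefore not hold for the histone genes.

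Named genes were every called histone gene, the 12 highest by mean CPM, the highest of each type per kb, up to 4 called genes of smallest p from each of 5 related lists per comparison, and a set named always (Slbp, Npat, H2afx, H2afz, H3f3b, Mcm5, Pcna, Mki67, Cd3e, Cd4, Cd8a, Lyz2, Hbb-bs, Rbpj and 1 gene that is not reported here). The members and the 10 gene lists (158 genes) were chosen with earlier results of these data known. The motifs, the printed sequences, the splits by cluster and by shared sequence, the H1 shares, the genes named at an unadjusted p, the uncalled Hist3h2a, Hist2h2be, Hist2h3b and Hist1h1t, and the block with crossed numbers were chosen after the data were seen. Alternatives were other scalings, filters, tests, libraries and gene sets, a block for the replicate number, and leave-one-out fits.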

Additional observations from a re-analysis of the deposited data

How the results depend on the processing

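In every alternative run no histone gene was called lower than WT, and the median log2 value stayed above 0 against WT, between 1.498 and 2.92 in ON and between 1.501 and 2.30 in OFF. The count of 41 genes in ON against WT became 21 with no count filter, 21 with limma-voom and 4 to 53 without 1 library, and with DESeq2 it was 49. The share of all genes called went from 14.8% to 4.28%, 12.6%, 2.08% to 13.4%, and 16.9%. The count of 18 in OFF against WT became 10 with no filter, 42 with DESeq2, 2 with limma-voom, 49 with only the 4 libraries compared and 0 to 49 without 1 library. The share of all genes went from 6.83% to 2.24%, 7.76%, 3.70%, 9.89%, and 1.27% to 9.18%. Between OFF and ON the median log2 value ran from -0.75 to 0.51 without 1 library. Replicate numbers are not stated to pair samples, and deviations of same-numbered libraries correlated at 0.08 (WT and ON), -0.21 (WT and OFF) and -0.20 (ON and OFF). With a replicate block 32, 14 and 0 genes were called in ON against WT, OFF against WT and OFF against ON. The shares of all tested genes called there were 9.13%, 4.20% and 0.380%. With the OFF numbers crossed, added after seeing the data, the counts were 50, 49 and 3. Crossing also raised the shares of all tested genes called, to 23.8%, 13.2% and 7.67%, and 3 of 58 is near the last share. Group means of the sums by type moved by less than 1 SD with RLE scaling, with no scaling factor and with filtered genes only. For all types together that SD was 1770 on a mean of 3636 in ON and 827 on 2715 in OFF. TMM factors ran only from 0.961 to 1.047, so in ON and OFF this could hardly come out otherwise. The cause of these shifts was not tested.

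Signs turned for uncalled values. In ON against WT, Hist2h2be ranged from -0.22 to 0.069 without 1 library. In OFF against ON 30 of 43 named genes changed sign without some library, 26 of them without ON 1. Their ranges were, for H1, Hist1h1a -0.93 to 0.84, Hist1h1b -1.08 to 0.78, Hist1h1d -1.04 to 0.18 and Hist1h1e -0.86 to 0.21. For H2A they were Hist1h2af -1.36 to 0.23, Hist1h2ag -0.71 to 0.82, Hist1h2ak -1.07 to 0.46, Hist1h2an -1.85 to 0.31 and Hist1h2ao -0.62 to 1.03. For H2B they were Hist1h2bb -1.004 to 0.019, Hist1h2bg -0.84 to 0.23, Hist1h2bl -1.20 to 0.28 and Hist1h2bn -1.10 to 0.059. For H3 they were Hist1h3a -0.85 to 0.57, Hist1h3c -0.69 to 1.54, Hist1h3d -0.94 to 0.77, Hist1h3e -0.46 to 0.78, Hist1h3f -0.35 to 0.60, Hist1h3g -0.75 to 0.90, Hist1h3h -0.52 to 0.71 and Hist1h3i -0.72 to 0.72. For H4 they were Hist1h4a -0.70 to 0.52, Hist1h4c -0.60 to 0.34, Hist1h4d -0.46 to 0.22, Hist1h4f -0.69 to 0.70, Hist1h4h -0.53 to 0.19, Hist1h4j -1.05 to 0.22, Hist1h4k -0.93 to 0.33, Hist2h4 -0.56 to 0.25 and Hist4h4 -0.64 to 0.18. With limma-voom the values of Hist1h2ag, Hist1h2ao and Hist1h3g were 0.0030, 0.21 and 0.035. Hist1h2ag was 0.0043 and Hist1h2ao 0.077 with the replicate block, and Hist1h2ao was 0.048 with crossed numbers and 0.037 with no filter.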

Other observations

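Hist2h2ac and Hist2h2be are neighbours on chromosome 3, at 96220361 to 96220880 on the minus strand and 96221119 to 96223738 on the plus strand (GRCm38), so they are transcribed away from each other. Their log2 values in ON against WT were 1.94 ± 0.34 and -0.10 ± 0.23, and in OFF against ON -1.01 ± 0.32 and 0.36 ± 0.23. Hist2h2ac has a stem-loop match, and Hist2h2be, with 2192 annotated bases after the stop, has none. The pair was chosen with its values in view, and the difference between the genes was not tested.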
